A study of Homo sapiens with 60 samples.

Results

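The release of paused RNA polymerase II is described here through 10 genes that act together in it: CDK9, CCNT1, CCNT2, HEXIM1, LARP7, MEPCE, SUPT5H, NELFE, ELL2 and CDK12. They were chosen by their names and roles, with earlier results of these data known, and are 10 of the 58395 gene rows of the count table. RNA polymerase II starts most genes and then halts a short way downstream, held there by the factors DSIF and NELF. The kinase CDK9 with a cyclin T forms P-TEFb, which phosphorylates DSIF, NELF and the tail of the polymerase and so lets it move on. Cells keep much of their P-TEFb inactive in a particle built on the 7SK RNA, in which HEXIM1 holds the kinase off and LARP7 and MEPCE keep the RNA stable. P-TEFb leaves that particle when transcription is disturbed, and topoisomerase 1, the target of topotecan, removes the twist that builds up around a moving polymerase.

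The libraries came from HEK293A, a human embryonic kidney line, in which guides against constitutive coding exons of TDP1 had been used with CRISPR/Cas9. TDP1 is the enzyme that removes trapped topoisomerase 1 from DNA. There were 3 knockout clones, C6, F7 and G6, each a single clone, and every library carried the targeted TDP1 gene; unedited cells were not analysed here. Cells of each clone received nothing, 0.1% DMSO, 100 nM topotecan with 0.1% DMSO, 5 µM OL9-119 dissolved in 0.1% DMSO, or 100 nM topotecan with 5 µM OL9-119, for which the label names no DMSO. OL9-119 belongs to the compounds made as TDP1 inhibitors. Cells were treated for 5 to 5.5 hours, and poly(A) RNA was sequenced from 4 biological replicates in each of the 15 groups, 60 libraries in all.

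Totals lay between 4.62 and 20.9 M counts per library, with a median of 11.4 M. All 10 genes passed the filter on low counts, and the lowest count of any of them in any library was 119. TDP1 was read at 17.8 to 42.3 CPM (counts relative to the library total, scaled by TMM), which does not check the knockout, since a whole-gene count also holds transcripts of a disrupted gene. TDP1 was lower with topotecan than with DMSO, by a log2 change of -0.37 ± 0.07 (SE; adjusted p = 5.3e-05 in edgeR). The kidney line's own markers were present, with KRT8 at 499.6 to 1009 CPM and VIM at 233 to 727 CPM in the 60 libraries, while INA was at 0 in 7 libraries and PAX2 in 1. Of the blood, liver, fibroblast and endothelial markers, PTPRC was at 0 in 53 libraries and DCN in 39, and the highest was COL1A1 at 8.38 to 43.03 CPM.

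A set of 14 libraries stood apart by the number of genes detected at a common depth of 4.5 M counts, with 17454 to 19345 genes against 20160 to 23640 in the other libraries. They were 10 libraries of clone C6 and 4 of clone G6. By treatment, 2 were untreated, 3 were DMSO, 2 topotecan, 3 OL9-119 and 4 the combination. Within the 9 groups that held both kinds, HEXIM1, MEPCE and SUPT5H were lower in these libraries in 9 of 9 groups, and CCNT1, CCNT2, LARP7 and ELL2 were higher in 9 of 9. The mean log2 difference reached -0.50 for MEPCE and 0.46 for ELL2. Most called changes are therefore also given without these libraries, while changes within a single clone are given with them only. Their part in the results was not tested otherwise.

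Per kilobase of annotated exon, the 10 genes spanned a wide range of levels in the 12 DMSO libraries. HEXIM1 was highest with a median of 43.6 CPM per kb (range 25.7 to 54.6), and NELFE, the RNA-binding subunit of NELF, followed at 39.5 (34.3 to 44.6). LARP7 (26.7), SUPT5H, the large subunit of DSIF (25.8), CCNT1 (24.0) and MEPCE (22.5) formed a middle group. CDK9 stood at 12.001 CPM per kb, CDK12 at 11.02, the elongation factor ELL2 at 8.19 and CCNT2 at 6.46. Only at 2 steps of this order did all 12 libraries show the same order: NELFE lay above LARP7, and MEPCE above CDK9, in 12 of 12. HEXIM1 exceeded NELFE in 8 of 12 libraries, LARP7 exceeded SUPT5H in 6 of 12, and CDK9 exceeded CDK12 in 6 of 12. Those neighbours thus had no fixed order over the 12 libraries pooled. The clones could differ in this: in F7 HEXIM1 (52.0 to 54.6) lay wholly above NELFE (38.8 to 43.9), while in C6 the ranges of these genes overlapped. Between the cyclins, CCNT1 was read at several times the level of CCNT2 per kilobase, and its lowest DMSO library (20.3) lay above the highest of CCNT2 (8.76).

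**Figure D1:**
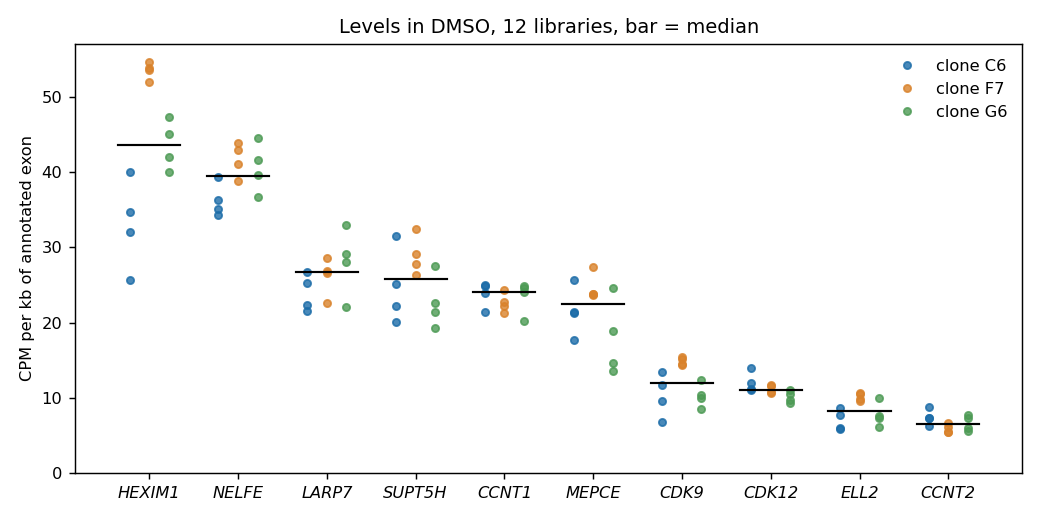
Level of each gene in CPM per kb of annotated exon (vertical axis) in the 12 DMSO libraries, coloured by clone, with the median as a bar. HEXIM1 and NELFE lie highest, at medians of 43.6 and 39.5, and ELL2 and CCNT2 lowest, at 8.19 and 6.46.

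Across all treatments, 6 of the 10 genes differed from DMSO in the edgeR test of any difference, in a table where 31.9% of all 18985 genes tested did so. These were HEXIM1 (adjusted p = 2.77e-18), CCNT1 (2.24e-05), MEPCE (0.000313), CDK9 (0.000661), CCNT2 (0.000947) and CDK12 (0.0402), all from edgeR's quasi-likelihood test with Benjamini-Hochberg adjustment over all genes. LARP7, SUPT5H, NELFE and ELL2 did not pass this test. The test also takes in the untreated libraries, and CDK12 was called in no single treatment's difference from DMSO. The 3 treatments with a compound were each compared with the same 12 DMSO libraries, so their changes share those controls. DMSO itself was compared with no treatment first: 0 of the 10 genes were called in edgeR, against 0.0158% of all genes, and 0 were called by DESeq2. At an unadjusted p under 0.05 in edgeR, CDK12 was the 1 gene of the 10, with a log2 difference of 0.13 ± 0.05 (SE), where 5.02% of all genes were under it.

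With topotecan, 3 of the 10 genes rose and 0 fell, where 15.3% of all genes tested were called, 5.99% of them higher and 9.35% lower. The median log2 change of the 10 genes was 0.09, beside 0.02 over all genes tested. HEXIM1, the inhibitor of P-TEFb, rose 1.45-fold, MEPCE, the enzyme that caps 7SK, rose 1.32-fold, and CCNT1, the main cyclin of P-TEFb, rose 1.15-fold. With OL9-119, 1 of the 10 rose, CDK9 by 1.31-fold, where 9.47% of all genes were called and 4.47% were higher. With both compounds, 4 of the 10 rose, namely HEXIM1, CDK9, CCNT2 and CCNT1, where 21.2% of all genes were called and 9.52% were higher. No gene of the 10 fell in any of these 3 comparisons.

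**Figure D2:**
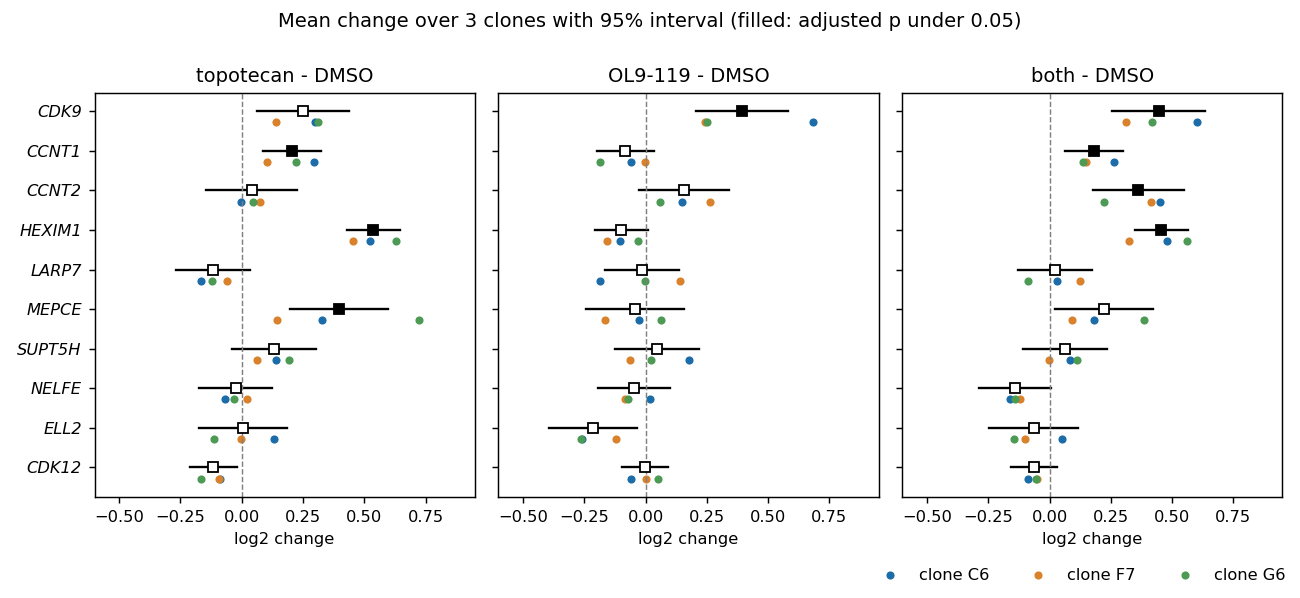
Log2 change against DMSO (horizontal axis) of the 10 genes for topotecan, OL9-119 and both compounds, as the mean over 3 clones (squares, filled where the adjusted p was under 0.05) with its 95% interval, and for each clone (coloured points). HEXIM1 is filled at 0.54 for topotecan and 0.46 for both compounds, and CDK9 at 0.39 for OL9-119 and 0.44 for both.

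HEXIM1 (ENSG00000186834) lies on the plus strand of chromosome 17 at 45148502 to 45152101 in hg38, with coordinates here and below from GENCODE 29. In clone F7 it was read at 194, 197, 193 and 187 CPM in DMSO and at 263, 254, 262 and 278 CPM with topotecan. In clone G6 the values were 144, 171, 151 and 162 CPM in DMSO and 254, 237, 243 and 237 CPM with topotecan. All topotecan libraries of these clones were above all their DMSO libraries. In clone C6, 115, 92.5, 144 and 124.9 CPM in DMSO stood against 159, 194, 186 and 148 CPM with topotecan, again without overlap. The mean log2 change was 0.54 ± 0.05 (SE; adjusted p = 9.63e-12 in edgeR), with 0.52 in C6, 0.46 in F7 and 0.63 in G6, each of which passed on its own in edgeR, where 4.71%, 1.94% and 8.72% of all genes were called. In bulk libraries a change in the share of cells and a change of RNA per cell cannot be told apart.

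OL9-119 alone left HEXIM1 close to its DMSO level. With OL9-119 the values ranged from 94.7 to 180 CPM over the 12 libraries with a median of 154 CPM, beside 92.5 to 197 CPM and a median of 157 CPM in DMSO. The log2 change was -0.10 ± 0.05 (SE; adjusted p = 0.297 in edgeR), with a 95% interval from -0.21 to 0.01. In clone F7 all 4 OL9-119 libraries, at 180.4, 167, 172 and 171 CPM, lay below all 4 DMSO libraries, while the groups overlapped in C6 and G6. With both compounds HEXIM1 was again high. Clone C6 then had 165, 158, 180.1 and 164 CPM, clone F7 had 244, 236, 264 and 223 CPM, and clone G6 had 209, 214, 237 and 265 CPM. The combination lay above DMSO and above OL9-119 in all libraries of all 3 clones, by log2 changes of 0.46 ± 0.05 (SE; adjusted p = 1.06e-09) and 0.55 ± 0.05 (SE; adjusted p = 3.97e-12) in edgeR. Untreated libraries ranged from 113 to 185 CPM with a median of 145 CPM. Against topotecan alone the combination differed by -0.08 ± 0.05 (SE), which did not pass, and the groups overlapped in all 3 clones.

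Both the topotecan and the combination change of HEXIM1 stood without the 14 libraries of low detection, at log2 0.53 and 0.45. Split by the prefix of the library label, whose meaning is not stated and which was spread evenly over treatments, the topotecan change was 0.52, 0.59 and 0.43 on the log2 scale in the 3 prefixes. The annotated exons of HEXIM1 share 520 bases, 14.4% of their length, with the antisense gene AC138150.1. Whether the counting used strand is not given in the sources used here; reads of the pair cannot be told apart there. AC138150.1 had a median of 0.292 CPM, beside 170 CPM for HEXIM1.

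HEXIM1 and MEPCE, which both rose with topotecan, are shown by the 250 bases before a RefSeq start (GRCh38.p14, plus strand). CDK12 is shown beside them, and its topotecan value of -0.12 was not called. Capitals mark the TATA box letters TATAAA, the GC box letters GGGCGG, and the letters TGACGT of the CRE core, searched on either strand. The E-box letters CACGTG were searched for likewise.
HEXIM1, chr17:45148225-45148474: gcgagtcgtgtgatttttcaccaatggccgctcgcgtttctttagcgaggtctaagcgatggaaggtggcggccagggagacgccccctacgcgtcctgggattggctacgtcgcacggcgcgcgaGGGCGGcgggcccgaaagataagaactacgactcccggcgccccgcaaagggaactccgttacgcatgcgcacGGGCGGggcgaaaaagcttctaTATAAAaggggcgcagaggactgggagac
MEPCE, chr7:100428540-100428789: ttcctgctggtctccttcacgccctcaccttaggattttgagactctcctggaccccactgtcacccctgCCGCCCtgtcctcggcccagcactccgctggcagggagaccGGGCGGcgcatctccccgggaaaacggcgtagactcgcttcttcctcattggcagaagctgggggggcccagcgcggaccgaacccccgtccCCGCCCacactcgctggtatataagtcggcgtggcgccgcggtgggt
CDK12, chr17:39461236-39461485: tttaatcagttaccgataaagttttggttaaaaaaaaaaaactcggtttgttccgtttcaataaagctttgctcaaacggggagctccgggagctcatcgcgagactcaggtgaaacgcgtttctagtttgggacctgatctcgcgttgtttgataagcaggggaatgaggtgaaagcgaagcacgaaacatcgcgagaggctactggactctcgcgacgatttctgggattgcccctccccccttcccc

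The HEXIM1 window held TATAAA at position -29 from the start and 2 GC boxes. Among the 14 windows of the 9 genes with an entry in the RefSeq table, that of HEXIM1 was the 1 with TATAAA, a sequence that 10.7% of the 35116 windows of the table hold. GGGCGG stood 3 times in the MEPCE window shown and not in the CDK12 window, beside 42.6% of all windows. TGACGT stood in 7.10% and CACGTG in 6.34% of all windows, and neither in the 3 windows shown. MEPCE has 3 windows in the table: the second, not shown, held 4 GC boxes, TGACGT and CACGTG, and the third held none of the motifs searched. The other motifs searched, also on both strands, were the ATF4-CEBP composite TGATGNAAN (3.13% of all windows), the NF-kB motif (54.4%) and the heat shock element (0.441%). The NF-kB motif stood in each of the 3 windows shown and the other motifs of this group in none of them. Such matches describe letters in a window and not bound sites. Variants of TATAAA, such as the letters tatataag near the end of the MEPCE window shown, were not searched.

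MEPCE (ENSG00000146834; chromosome 7, 100428790 to 100434126, plus strand) adds the methyl cap at the end of the 7SK RNA and remains bound to it. In clone G6 it was read at 46.6, 50.2, 64.8 and 84.2 CPM in DMSO and at 99.2, 102.8, 95.8 and 109 CPM with topotecan, so that the groups did not overlap. Clone F7 had 81.0, 93.7, 81.3 and 81.3 CPM in DMSO and 90.8, 95.5, 89.2 and 97.2 CPM with topotecan. In clone C6, 60.6, 72.8, 87.6 and 73.1 CPM stood against 79.7, 106, 105 and 78.4 CPM. The groups overlapped in F7 and C6, and G6 was the clone that passed on its own in edgeR. In G6, DMSO replicate 1 (46.6 CPM) was a low-detection library and no topotecan library was. MEPCE was lower in low-detection libraries, and the G6 change is not given without that library. The mean change was 0.40 ± 0.10 on the log2 scale (SE; adjusted p = 0.00229 in edgeR), with 0.33 in C6, 0.14 in F7 and 0.72 in G6. A difference between the clones in this change was not called (unadjusted p = 0.0591 in edgeR).

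With OL9-119 MEPCE stood at -0.04 ± 0.10 (SE, log2) from DMSO, with a 95% interval from -0.24 to 0.16. With both compounds it was at 0.22 ± 0.10 from DMSO (adjusted p = 0.111 in edgeR), and 3 of 7 alternative analyses, leaving out the low-detection libraries among them, called that change. The combination values ran from 52.7 to 103.3 CPM with a median of 89.9 CPM, beside 46.6 to 93.7 CPM and a median of 77.0 CPM in DMSO. The topotecan change of MEPCE was 0.39 without the low-detection libraries. By label prefix it was 0.54, 0.33 and 0.22 on the log2 scale. The exons of MEPCE overlap those of ZCWPW1 on the other strand by 203 bases (5.94% of their length), and ZCWPW1 had a median of 4.01 CPM, beside 81.1 CPM for MEPCE.

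LARP7 (ENSG00000174720; chromosome 4, 112636964 to 112657592, plus strand) binds the 3′ end of 7SK and protects it. It was called in none of the treatment comparisons in edgeR. Its values spanned 87.8 to 135 CPM (median 109) in DMSO, 79.2 to 126.5 CPM (median 95.5) with topotecan, 68.3 to 145 CPM (median 101.96) with OL9-119 and 86.1 to 123.2 CPM (median 112) with both. All these ranges overlapped. The log2 change with topotecan was -0.12 ± 0.08 (SE), with an interval from -0.27 to 0.04 that excludes a rise of the size seen for HEXIM1. LARP7 shares 32 exon bases with ZGRF1, which lies on the other strand and had a median of 54.3 CPM.

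CDK9 (ENSG00000136807; chromosome 9, 127785679 to 127790787, plus strand) is the kinase of P-TEFb. In clone C6 it was read at 20.2, 28.5, 40.2 and 34.97 CPM in DMSO and at 44.5, 49.4, 59.0 and 48.3 CPM with OL9-119, without overlap. Untreated C6 libraries had 39.7 to 42.9 CPM. Replicates 1 and 2 of DMSO and replicates 1 and 4 of OL9-119 in C6 were low-detection libraries. In clone F7, 43.1, 45.4, 46.1 and 43.5 CPM in DMSO stood against 48.02, 54.5, 50.7 and 57.6 CPM with OL9-119, also without overlap. Clone G6 had 25.6, 31.2, 30.03 and 37.04 CPM in DMSO and 24.0, 40.8, 40.4 and 43.01 CPM with OL9-119, where replicate 1 lay below all DMSO libraries and the other 3 above them. In G6, replicate 1 of DMSO and replicate 1 of OL9-119 were low-detection libraries. The mean log2 change was 0.39 ± 0.09 (SE; adjusted p = 0.00249 in edgeR). It came to 0.68 in C6, which passed on its own, 0.24 in F7 and 0.25 in G6, where 3.25%, 1.05% and 1.86% of all genes were called, and the difference between clones was not called (unadjusted p = 0.0971 in edgeR).

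With both compounds CDK9 rose by 0.44 ± 0.09 on the log2 scale (SE; adjusted p = 0.000202 in edgeR). Its values were 53.6, 45.2, 57.2 and 34.5 CPM in clone C6, 52.6, 60.7, 54.3 and 53.6 CPM in F7 and 34.3, 39.5, 42.8 and 49.3 CPM in G6. Clone F7 was the 1 clone in which they lay wholly above DMSO. Untreated CDK9 values ran from 29.2 to 52.1 CPM (median 41.6), and DMSO minus no treatment was -0.18 ± 0.09 (SE, log2), which was not called. With topotecan alone the values ranged from 25.6 to 52.5 CPM (median 41.9), beside 20.2 to 46.1 CPM (median 36.003) in DMSO. The change was 0.25 ± 0.09 (SE; adjusted p = 0.0592 in edgeR), which 6 of 7 alternative analyses called, with adjusted p from 0.00824 to 0.066. By label prefix the topotecan value was 0.46, 0.29 and -0.05, so it did not hold in the third. For OL9-119 it was 0.48, 0.45 and 0.32. The combination did not differ from OL9-119 alone by a called amount (0.05 ± 0.09, interval from -0.13 to 0.24). Without the low-detection libraries the changes were 0.37 for OL9-119 and 0.46 for both compounds.

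CCNT1 (ENSG00000129315; chromosome 12, 48688458 to 48716998, minus strand) encodes cyclin T1, the partner through which CDK9 also binds HEXIM1. Topotecan values were 229.9, 192, 184 and 256 CPM in clone C6, 178, 187, 178 and 175 CPM in F7 and 219.9, 200.4, 208 and 179 CPM in G6. In DMSO they were 184, 177, 158 and 183 CPM in C6, 168, 163, 157 and 179 CPM in F7 and 184, 181, 178 and 149 CPM in G6. The groups overlapped in each clone, although the topotecan library was the higher in 11 of the 12 same-number pairs, a number that the labels do not say to mark a shared culture or day. The mean log2 change was 0.21 ± 0.06 (SE; adjusted p = 0.00837 in edgeR), and no single clone passed alone.

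With OL9-119 CCNT1 ranged from 129.5 to 190.4 CPM (median 162) and stood at -0.08 ± 0.06 (SE, log2) from DMSO, which did not pass. With both compounds it ranged from 176 to 229.9 CPM (median 190.03). The combination exceeded OL9-119 by 0.27 ± 0.06 (SE; adjusted p = 0.000633 in edgeR), without overlap in 2 of the 3 clones. It exceeded DMSO by 0.18 ± 0.06 (SE; adjusted p = 0.0173 in edgeR). That last call was lost without the low-detection libraries, where the log2 change was 0.13 with an adjusted p of 0.128 in edgeR. The topotecan change without them was 0.18 and still passed.

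CCNT2 (ENSG00000082258; chromosome 2, 134918235 to 134959342, plus strand) encodes the other cyclin T. At 0.04 ± 0.09 (SE, log2) with topotecan and 0.16 ± 0.09 with OL9-119 it passed with neither compound alone. With both it was 0.36 ± 0.09 above DMSO (SE; adjusted p = 0.0021 in edgeR). Its 12 topotecan libraries ranged from 48.2 to 80.5 CPM (median 59.96) and its OL9-119 libraries from 53.2 to 92.6 CPM (median 64.2), both overlapping DMSO. The combination values were 93.6, 104.1, 67.6 and 100.2 CPM in clone C6, 73.9, 74.1, 66.4 and 71.0 CPM in F7 and 88.9, 73.6, 65.8 and 53.8 CPM in G6. DMSO had 65.7, 79.6, 56.6 and 66.0 CPM in C6, 55.6, 49.2, 48.9 and 60.7 CPM in F7 and 66.1, 70.4, 54.1 and 51.0 CPM in G6. The groups were apart in F7 and overlapped in C6 and G6. Without the low-detection libraries the change with both compounds was 0.25 (adjusted p = 0.0418 in edgeR).

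In the direct comparison with topotecan, CCNT2 was the 1 gene of the 10 that the combination changed, where 6.78% of all genes were called and 3.33% were higher. The log2 difference was 0.32 ± 0.09 (SE; adjusted p = 0.0201 in edgeR). Without the low-detection libraries it was 0.21 (adjusted p = 0.218 in edgeR), and the call was also lost on leaving out topotecan replicate 2 of C6, topotecan replicate 4 of G6 or combination replicate 1 of G6, with adjusted p of up to 0.0707. Of the libraries of low detection, in which CCNT2 was higher in 9 of 9 groups, 4 were combination libraries and 2 topotecan libraries. Against OL9-119, 2 of the 10 rose, HEXIM1 and CCNT1, where 12.7% of all genes were called and 5.0% were higher, and CCNT2 stood at 0.21 ± 0.09 (adjusted p = 0.145 in edgeR). MEPCE stood at 0.26 ± 0.10 in that comparison (adjusted p = 0.0692 in edgeR). Each of the 7 alternative analyses except that with only the groups compared called this MEPCE difference.

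The combination was also set against the sum of both compounds on the log2 scale. For the 10 genes 0 departures were called in edgeR or DESeq2, where 0.0316% of all genes were called in edgeR. At an unadjusted p under 0.05 there were 0 in either, where 6.31% of all genes were under it in edgeR. CDK9 had the largest negative value among them, -0.20 ± 0.13 (SE), and CCNT2 the largest positive, 0.17 ± 0.13. The 95% intervals, from -0.46 to 0.07 for CDK9 and from -0.09 to 0.43 for CCNT2, still allow departures as large as the changes of these genes themselves. For HEXIM1 the value was 0.02 ± 0.08, with an interval from -0.14 to 0.17.

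**Figure D3:**
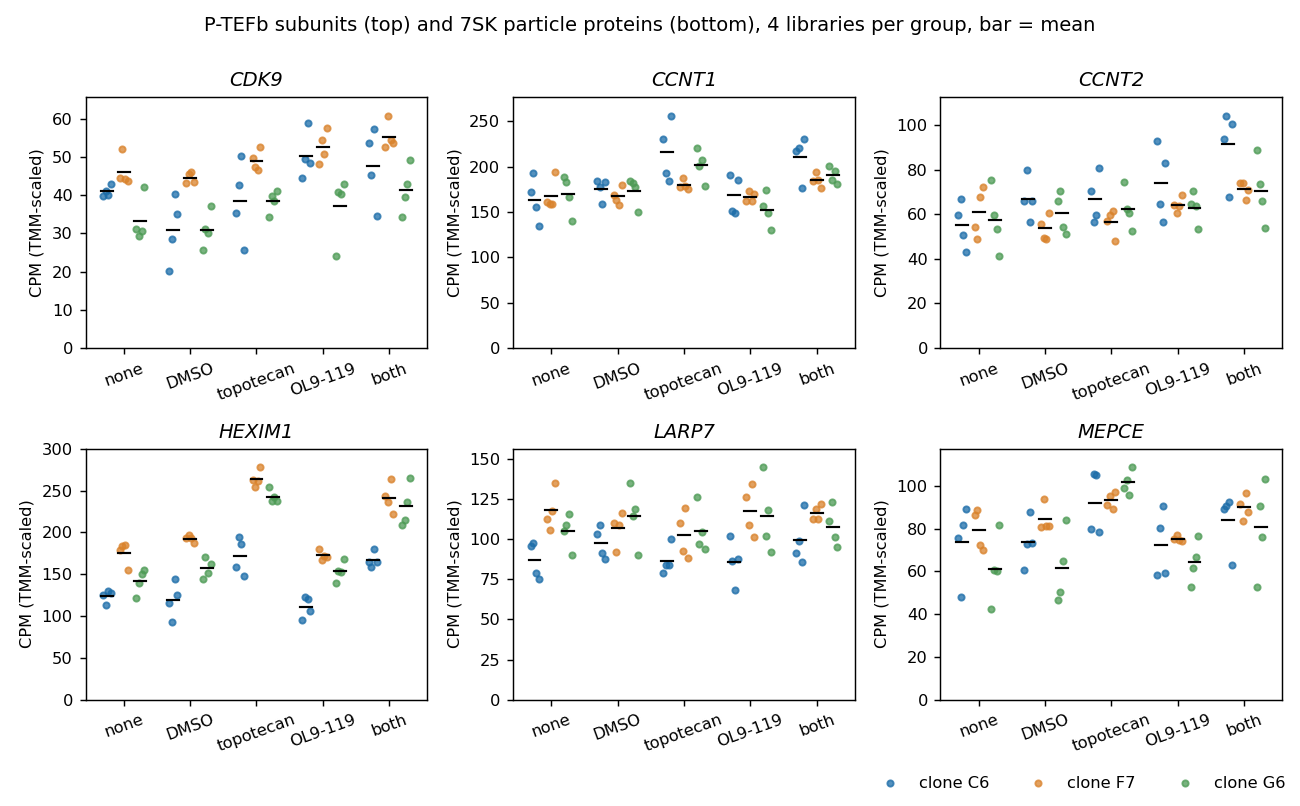
CPM with TMM scaling (vertical axes, from 0) of the P-TEFb subunits CDK9, CCNT1 and CCNT2 and of the 7SK particle proteins HEXIM1, LARP7 and MEPCE in the 60 libraries, by treatment and clone, with group means as bars. HEXIM1 with topotecan, at 148 to 278 CPM over all clones, lies above DMSO within each clone, and clone C6 has the lowest HEXIM1 mean in every treatment.

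Of the pausing factors, SUPT5H and NELFE were called in none of the treatment comparisons. SUPT5H (ENSG00000196235; chromosome 19, 39436156 to 39476670, plus strand) stays with the polymerase as a positive factor once P-TEFb has phosphorylated it. It ranged from 165 to 278 CPM (median 221) in DMSO and from 186 to 277 CPM (median 243) with topotecan, and the log2 change was 0.13 ± 0.08 (SE; adjusted p = 0.353 in edgeR). NELFE (ENSG00000204356; chromosome 6, 31952087 to 31959110, minus strand) had 93.3 to 121.2 CPM (median 107) in DMSO and 70.4 to 119 CPM (median 99.5) with both compounds. Its value with both compounds was -0.14 ± 0.07 (SE; adjusted p = 0.186 in edgeR), below 0 in 11 of the 12 same-number pairs, and 0.01 without the low-detection libraries. NELFE shares 31 exon bases with SKIV2L on the other strand, which had a median of 59.5 CPM.

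ELL2 (ENSG00000118985; chromosome 5, 95885098 to 95962071, minus strand) belongs to the super elongation complex, which brings P-TEFb to the polymerase and raises its speed. With OL9-119 it was read at 33.4 to 70.5 CPM (median 50.8), beside 42.4 to 77.7 CPM (median 60.01) in DMSO. The log2 value was -0.21 ± 0.09 (SE; adjusted p = 0.136 in edgeR), and in 11 of the 12 same-number pairs ELL2 was lower. The change was called, as a fall, in 2 of 7 alternative analyses, 1 of them without the low-detection libraries (-0.22, adjusted p = 0.00873 in edgeR). With topotecan ELL2 stood at 0.01 ± 0.09, with an interval from -0.18 to 0.19.

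CDK12 (ENSG00000167258; chromosome 17, 39461511 to 39564907, plus strand) is the kinase that acts on the polymerase tail further into the gene and is known for keeping long DNA repair genes fully transcribed. It ranged from 119 to 178 CPM (median 141) in DMSO and from 106 to 152 CPM (median 133) with topotecan. The log2 value with topotecan was -0.12 ± 0.05 (SE; adjusted p = 0.0915 in edgeR), below 0 in 10 of the 12 pairs of libraries with 1 number, and no alternative analysis of the 7 called it. It was -0.002 ± 0.05 with OL9-119. Of 7 DNA repair genes known to depend on CDK12, 2 fell and 0 rose with topotecan, BRCA1 by -0.23 and FANCI by -0.14 on the log2 scale, where 9.35% of all genes tested fell. BRCA1 spans 125.95 kb and FANCI 73.3 kb. None of the 7 was called with OL9-119 or with both compounds.

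**Figure D4:**
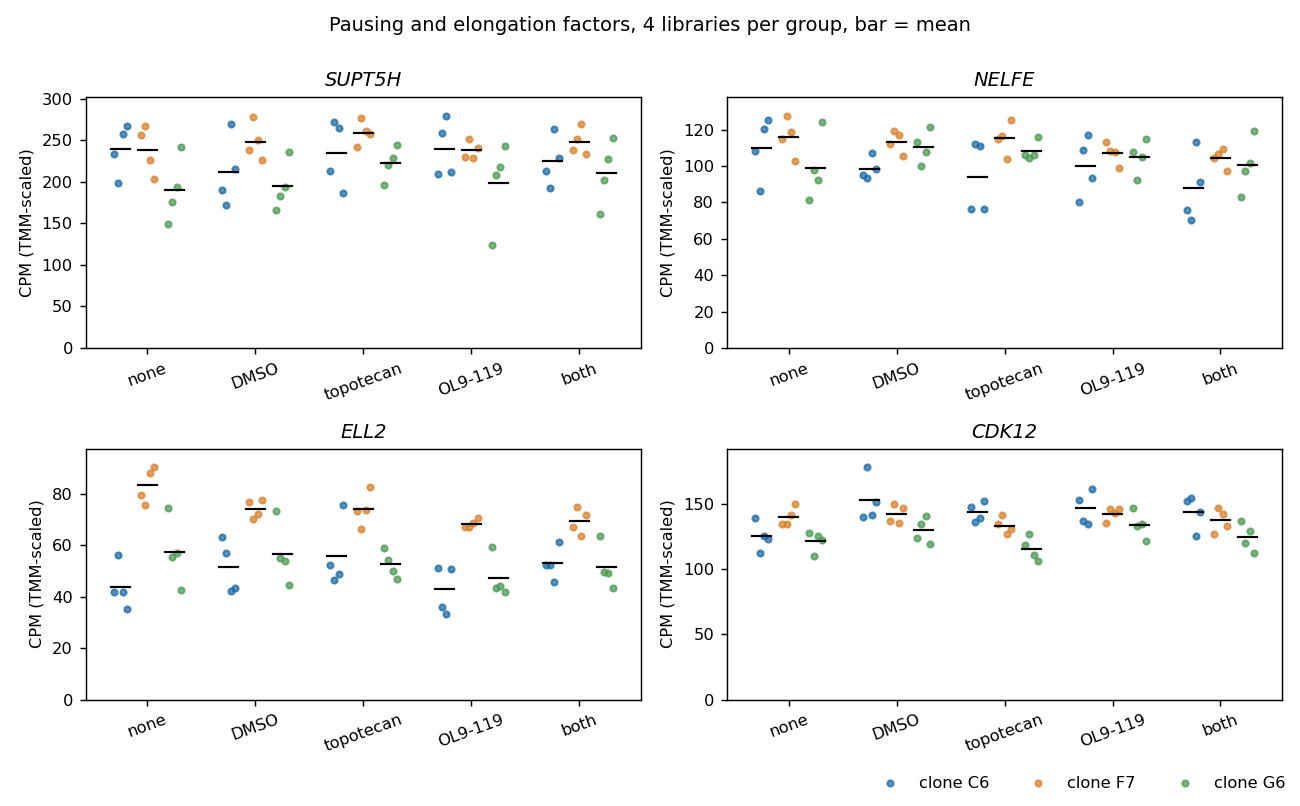
CPM with TMM scaling (vertical axes, from 0) of SUPT5H, NELFE, ELL2 and CDK12 in the 60 libraries, by treatment and clone, with group means as bars. With the clones pooled, treatments overlap for all 4 genes, and ELL2 in clone F7, with a DMSO mean of 74.2 CPM, lies above C6 (51.4) and G6 (56.7). Within a clone some treatments do not overlap, such as CDK12 in C6 with DMSO (140 to 178 CPM) and untreated (113 to 139 CPM).

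The clones differed in the levels of several of these genes in DMSO. HEXIM1 had means of 119 ± 21.5 CPM in C6, 157 ± 11.7 in G6 and 193 ± 3.89 in F7 (SD, n = 4 each), and each pair of clones differed in edgeR. With only the groups compared in the fit, the C6 minus G6 difference of HEXIM1 was -0.40 and did not pass (adjusted p = 0.0511 in edgeR). The log2 differences were -0.69 ± 0.09 for C6 minus F7 (SE; adjusted p = 2.73e-08), -0.39 ± 0.09 for C6 minus G6 (adjusted p = 0.00108) and 0.29 ± 0.09 for F7 minus G6 (adjusted p = 0.0207), all in edgeR. Without the low-detection libraries they were smaller for C6 minus F7 (-0.52, adjusted p = 1.34e-06 in edgeR) and for C6 minus G6 (-0.27, adjusted p = 0.0193 in edgeR). The F7 minus G6 call also stood without those libraries. The F7 and C6 libraries did not overlap. The same order of the clones, C6 lowest and F7 highest, held for the HEXIM1 group means in each of the 5 treatments. Between C6 and F7, 3 of the 10 genes differed, all lower in C6, where 39.5% of all genes were called and 19.2% were lower. Between C6 and G6, 2 of the 10 differed, with HEXIM1 lower and CDK12 higher in C6, where 24.4% of all genes were called. Between F7 and G6, 2 differed, both higher in F7, where 17.1% were called and 6.89% were higher.

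CDK9 had DMSO means of 31.0 ± 8.63 CPM in C6, 44.5 ± 1.45 in F7 and 31.0 ± 4.70 in G6 (SD, n = 4 each), and F7 was above both others. The log2 difference was -0.51 ± 0.16 for C6 minus F7 (SE; adjusted p = 0.0103 in edgeR). It was -0.25 without the low-detection libraries and then did not pass (adjusted p = 0.0948), nor did it pass without DMSO replicate 1 of C6 (adjusted p = 0.0824). For F7 minus G6 it was 0.52 ± 0.16 (SE; adjusted p = 0.0186 in edgeR), a call lost without DMSO replicate 3 of F7 or replicate 1 of G6, with adjusted p of up to 0.0874. ELL2 was lower in C6 than in F7, by -0.54 ± 0.16 (SE; adjusted p = 0.00451 in edgeR). Without the low-detection libraries this ELL2 difference was -0.79 (adjusted p = 3.29e-08 in edgeR). CDK12 was higher in C6 than in G6 by 0.24 ± 0.08 (SE; adjusted p = 0.0256 in edgeR), and that call was lost without the low-detection libraries (0.16), with no filter on low counts and with only the groups compared. It was also lost without DMSO replicate 2 of C6, replicate 1 of G6 or replicate 4 of G6. The HEXIM1 difference between F7 and G6 lost its call in 5 of the 8 analyses that left out 1 library, with adjusted p of up to 0.0717 in edgeR.

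Whether the 3 clones responded differently was tested for each treatment. In edgeR, 0 of the 10 genes were called for topotecan, OL9-119 or the combination, and 0 at an unadjusted p under 0.05. DESeq2 also gave 0. Of all genes, 0.137%, 0.0263% and 0.169% were called in these tests in edgeR, and 3.76%, 3.41% and 5.11% had an unadjusted p under 0.05.

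Genomic span is given because the changes with topotecan varied with it over all protein-coding genes. The median log2 change with topotecan was 0.12 in the 2857 genes under 10 kb, 0.09 in those of 10 to 30 kb, -0.01 in those of 30 to 100 kb, -0.16 in those of 100 to 200 kb and -0.36 in the 1176 genes over 200 kb, of which 56.8% fell. HEXIM1 spans 3.60 kb, CDK9 5.11 kb, MEPCE 5.34 kb and NELFE 7.02 kb. The change of HEXIM1 was above that of 94.6% of the genes under 10 kb, MEPCE above 89.5%, CDK9 above 76.0% and NELFE above 19.6%. LARP7, at 20.6 kb, was above 10.2% of the genes of 10 to 30 kb, and CCNT1, at 28.5 kb, above 75.1%. CDK12 is the longest of the 10 at 103.4 kb, and its value of -0.12 was above 57.4% of the genes in its range. Over the 10 genes the rank correlation of change and span was -0.64 for topotecan, 0.07 for OL9-119 and -0.56 for both, as a description over genes measured in the same libraries.

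**Figure D5:**
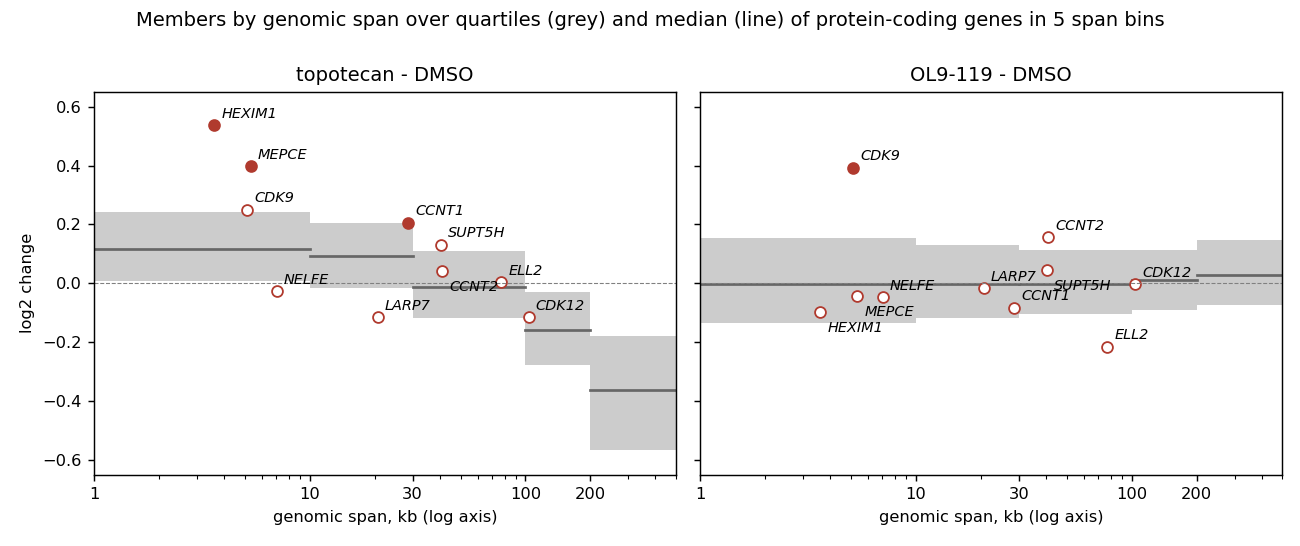
Log2 change (vertical axis) against genomic span in kb (logarithmic horizontal axis) of the 10 genes, for topotecan (left) and OL9-119 (right), over the quartiles (grey) and median (line) of protein-coding genes in 5 ranges of span. HEXIM1 and MEPCE lie above the upper quartile of 0.24 for short genes with topotecan, and CDK9 lies above that of 0.15 with OL9-119.

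The rest of the elongation machinery was read from lists of its complexes. Of 47 genes that were not among the 10, 45 were tested, and RN7SK, the 7SK RNA itself, and ELL3 did not pass the filter; 7SK is not polyadenylated, and the libraries were made from poly(A) RNA. With topotecan 3 of the 45 rose and 8 fell, beside 5.99% and 9.35% of all genes tested, with a median log2 change of 0.06 beside 0.02 over all genes. In the super elongation complex the scaffold AFF3 fell by 0.88 and the reader MLLT3 fell by 0.79 on the log2 scale, and EAF1 rose by 0.14. Of the other kinases of the polymerase tail, MNAT1 of the CDK7 complex stood at -0.47 and CDK13 at -0.35, and both passed. AFF3 (597 kb), MLLT3 (281 kb) and MNAT1 (235 kb) are among the genes over 200 kb, and CDK13 spans 149.9 kb. Among the 12 polymerase subunits POLR2A (0.33) and POLR2C (0.19) rose and POLR2B (-0.23) fell. CDC73 of the PAF1 complex fell by 0.29, and DSIF and NELF, with 6 subunits, and TFIIS with elongin, with 6 genes, had 0 called in edgeR.

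With OL9-119 0 of the 45 rose and 5 fell in edgeR, beside 4.47% and 5.0% of all genes tested, with a median of -0.03 beside 0.01 over all genes. They were POLR2K (-0.45), POLR2B (-0.16), the elongins ELOC (-0.22) and ELOA (-0.20), and SUPT4H1 (-0.20), the small partner of SUPT5H in DSIF. With both compounds 1 rose and 9 fell, beside 9.52% and 11.7% of all genes tested, with a median of -0.05 beside -0.01. EAF1 (0.24) was the 1 that rose, and AFF3 (-0.86), MLLT3 (-0.62), POLR2L (-0.50), MNAT1 (-0.39), ELOC (-0.31) and CDK13 (-0.25) were among those that fell.

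Transcripts known for short half-lives or for their dependence on P-TEFb were read as a further list of 9 genes. With topotecan 6 rose and 0 fell, beside 5.99% higher and 9.35% lower among all genes tested, and the median was 0.54 beside 0.02 over all genes. JUN rose by 0.91, JUNB by 1.00 and EGR1 by 0.70 on the log2 scale. By clone, 5 rose and 0 fell with topotecan in C6 and in G6, where 4.71% and 8.72% of all genes were called. In F7 1 rose and 1 fell, with a median of 0.24, where 1.94% were called. Each of the 9 genes spans less than 10 kb, and of all protein-coding genes under 10 kb 12.6% rose and 1.12% fell with topotecan. With OL9-119 2 rose and 2 fell, beside 4.47% and 5.0% of all genes, with JUN at 0.50, MCL1 at -0.26 and HSPA1B, an inducible heat shock gene, at -1.09. With both compounds 4 rose and 1 fell, beside 9.52% and 11.7% of all genes, with MYC at 0.92, JUN at 0.88 and HSPA1B at -1.43.

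HEXIM1 and CCNT1 had the smallest p in the test of any difference from DMSO, and the genes most like them over the 15 group means were sought among 12332 genes. For HEXIM1 these were FAM53C, CNNM4 and ATP10D, with Pearson's r of 0.95 each. For CCNT1 they were CLK1 (0.95), UTP23 (0.95) and ZNF10 (0.93). The 15 points share clones and treatments, and the r values are descriptions.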

How the data were processed

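Poly(A) RNA from 60 libraries, made with a directional kit per the labels, was used as the authors' deposited table of raw counts per Ensembl gene. FastQC 0.11.9, STAR 2.7.8, Picard 2.26.6 and hg38 are named, per the submitters' processing notes. How counts were made (program, gene models, strand) is not given in the sources used here. Genes past filterByExpr on the 15 groups (18985) were fitted in edgeR 4.0.16 under R 4.3.3, with TMM factors, 1 mean per group and 2-sided quasi-likelihood tests. Treatment contrasts average the 3 within-clone differences. Adjusted p are Benjamini-Hochberg values over all genes tested, with a threshold of 0.05. Depth was 4.62 to 20.9 M counts per library.

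The 10 genes and all lists were chosen with earlier results of these data known. The 10 genes and TDP1 are always named. From each list up to 3 other genes that passed are named per comparison, those with the smallest p. For the pair of members with the smallest p over 4 differences from DMSO, the 3 most correlated genes are named. Alternatives were RLE scaling, no filter, a replicate block, the label prefix, only the groups compared, DESeq2 1.42.0, leaving out 14 low-detection libraries, and leaving out each library. The scripts were tested on simulated data.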

Additional observations from a re-analysis of the deposited data

Results flagged for a closer look

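In 8 of the 150 sets of 4 replicates (10 genes in 15 groups), 1 library lay far from the other 3. Chance flags about 1 in 20 groups, which is close to this share. CDK9 was high in untreated F7 replicate 2 (52.1 CPM, others 43.7 to 44.6) and in untreated G6 replicate 4 (42.1 CPM, others 29.2 to 31.2), and low in OL9-119 replicate 1 of G6 (24.0 CPM, others 40.4 to 43.01). In that last library ELL2 was high (59.3 CPM, others 41.9 to 44.1). It was among the low-detection libraries, in which CDK9 was mostly lower and ELL2 higher. CCNT1 was high in untreated F7 replicate 4 (194 CPM, others 158.5 to 160.5). MEPCE was high in DMSO replicate 2 of F7 (93.7 CPM, others 81.0 to 81.3) and low in combination replicate 4 of C6 (63.1 CPM, others 89.4 to 92.5). Combination replicate 4 of C6 was also of low detection, as were replicates 1 and 2 of that group. The part of low detection in these flags was not tested. NELFE was high in topotecan replicate 4 of G6 (116 CPM, others 104.4 to 106.3).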

How the results depend on the processing

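The topotecan calls of HEXIM1, MEPCE and CCNT1, the OL9-119 call of CDK9 and the combination calls of HEXIM1, CDK9 and CCNT2 passed in all 7 alternatives and in every fit that left out 1 library. The larger moves in the counts of called genes were as follows. Smaller ones are left out, such as topotecan from 3 to 4 with DESeq2 (CDK9 added). For OL9-119 minus DMSO the count of 1 became 2 under the replicate block and without the low-detection libraries (ELL2 added). Over all genes, 1798 of 18985 became 2600 of 18985 and 2820 of 20654. For combination minus topotecan the count of 1 became 0 without those libraries, where 1287 of 18985 genes became 859 of 20654. For combination minus OL9-119 the count of 2 became 4 under the replicate block (CCNT2 and MEPCE added) and 4 without those libraries (ELL2 and MEPCE added). Over all genes, 2415 of 18985 became 3280 of 18985 and 2481 of 20654. C6 minus G6 went from 2 to 1 with no filter, 0 with only the groups compared and 1 without those libraries. Over all genes, 4635 of 18985 became 4206 of 41553, 2370 of 15084 and 4972 of 20654 in that order. F7 minus G6 went from 2 to 5 with no filter, 5 under the replicate block, 5 without those libraries and 4 with DESeq2. Over all genes, 3241 of 18985 became 2807 of 41553, 3523 of 18985, 4638 of 20654 and 3510 of 18985 in that order. Leaving out 1 library gave ranges of 0 to 1 for combination minus topotecan, 1 to 2 for C6 minus G6, 0 to 4 for F7 minus G6, 2 to 3 for C6 minus F7 and for combination minus OL9-119, 3 to 4 for topotecan and 4 to 5 for the combination. Reversals concerned uncalled values near 0. Without the low-detection libraries NELFE became 0.0501 (topotecan), 0.0058 (combination) and 0.0092 (combination minus OL9-119), CDK12 -0.0075 (combination minus topotecan), LARP7 -0.0018 and ELL2 -0.021 (both DMSO minus no treatment). With no filter NELFE became 0.0011 (topotecan) and CDK12 0.0032 (OL9-119). For C6 minus G6 CDK9 became -0.048 with the label prefix and -0.00068 with only the groups compared. The cause was not tested. The main fit did not take the replicate numbers as pairs, and the labels do not say that they mark a shared culture or day. Deviations of the 120 same-number pairs within a clone correlated at -0.29 to 0.44 (median 0.04), and 46 were over 0.1. Of 360 pairs with other numbers (median -0.01), 36 were over 0.1, and 35 of 60 libraries correlated best, on average, with their own number. Libraries of the same number thus shared some variation, which the main fit leaves in its spread. The replicate block is 1 of the 7 alternatives counted in the Results, and it also added CDK9 for topotecan and MEPCE for the combination.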

Other observations

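The low-detection libraries split the 10 genes in the same way in nearly every group that held them. Against the other libraries of their group, the mean log2 difference over 9 groups was -0.50 for MEPCE, -0.44 for SUPT5H, -0.38 for CDK9, -0.29 for NELFE and -0.23 for HEXIM1. It was 0.46 for ELL2, 0.38 for CCNT2, 0.23 for LARP7, 0.21 for CCNT1 and 0.10 for CDK12. CDK9 was lower in 8 of the 9 groups, NELFE in 7, and CDK12 was higher in 7.

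Over the 15 group means, CDK9 and SUPT5H had a Pearson's r of 0.80, MEPCE and SUPT5H 0.70, HEXIM1 and MEPCE 0.69, and CDK9 and its cyclin CCNT1 0.06. CCNT2 and NELFE stood at -0.76. These values describe groups that share clones, treatments and the low-detection libraries.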
